A study of Caenorhabditis elegans with 6 samples.

Results

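The 60 genes described here carry out fatty acid activation and beta-oxidation in the nematode C. elegans. They were taken from the 19999 genes of the data by their names on the WBcel235 annotation, as every gene named acs-, acdh-, acox-, ech-, hacd- or cpt- with a number, together with kat-1. The rule of choice used no measured value, though earlier results of these data were known when it was set. There were 22 acs, 6 cpt, 13 acdh, 10 ech and 7 acox genes, 1 hacd gene and kat-1, and all 60 were in the data. RNA was sequenced from whole animals collected at the fourth larval stage (L4), in 3 samples of ddi-1(icb156) mutants and 3 samples of wild type, each called a biological replicate by its label. Both groups came from embryos isolated by bleaching and were grown at 20 °C on E. coli OP50. The question was which transcripts differ when DDI-1, the aspartic protease that activates the proteasome regulator SKN-1A, is mutated. The allele is a non-synonymous change from a chemical mutagenesis screen, studied in a single strain with a reporter transgene (chil-27p::GFP, col-12p::mCherry). The sources used here do not say whether the wild-type samples had that transgene, so effects of the mutation, the transgene and other changes in the strain cannot be told apart.

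A fatty acid is first joined to coenzyme A by an acyl-CoA synthetase (acs). Carnitine palmitoyltransferases (cpt) move long chains into mitochondria, where an acyl-CoA dehydrogenase (acdh), an enoyl-CoA hydratase (ech), a hydroxyacyl-CoA dehydrogenase (hacd, or part of a multifunctional ech protein) and a thiolase such as KAT-1 take off acetyl-CoA step by step. In peroxisomes an acyl-CoA oxidase (acox) replaces the dehydrogenase, and worms use this route to shorten the side chains of ascaroside pheromones as well as very long fatty acids. Much of this chemistry takes place in the intestine and the epidermis, which store and burn fat.

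Of the 59 members that could be tested, 15 were lower and 9 were higher in ddi-1(icb156) than in wild type, and 35 did not pass. To pass, a member needed both a p below 0.01 in the quasi-likelihood test of edgeR and a Benjamini-Hochberg adjusted p, taken over 15409 genes, below 0.1. The limit on p decided the calls, since no gene with an adjusted p above 0.0427 passed. The lower members were 25.4% of those tested, against 13.4% of all genes tested, and the higher members were 15.3%, against 9.96% of all genes. The median member had a log2 fold change (ddi-1(icb156) over wild type) of -0.056, and the median gene of all genes tested one of 0.0051. The acdh genes gave 7 of the 15 falls and no rise, the acs genes passed in both directions, and no cpt gene passed. Levels of the 2 groups did not overlap in any of the 24 passing members. Counting members that did not pass as well, the 3 mutant libraries lay wholly below the 3 wild-type libraries in 22 members (37.3%, against 23.5% of all genes) and wholly above them in 17 (28.8%, against 23.4%).

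**Figure D1:**
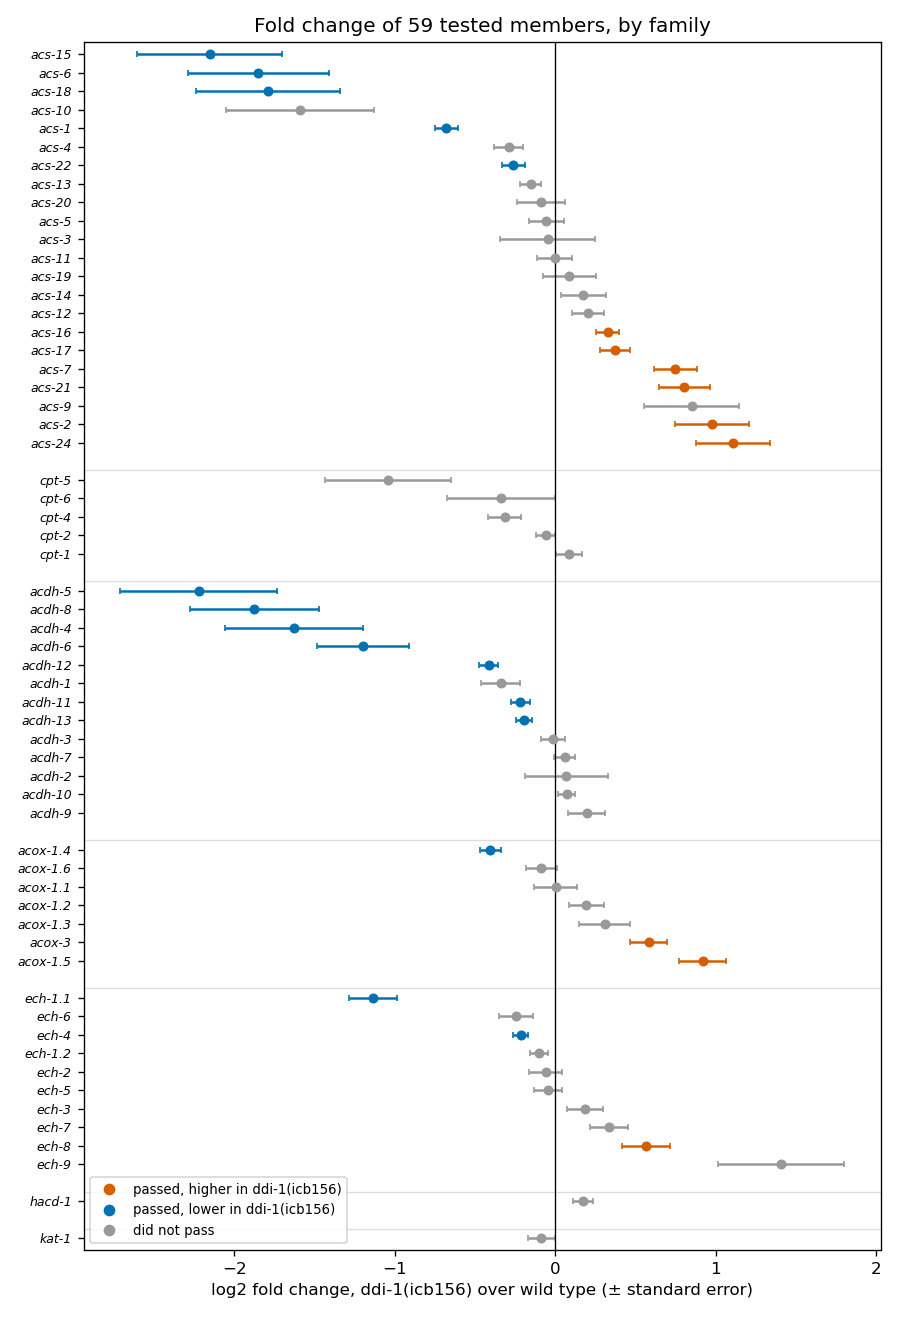
Log2 fold change of ddi-1(icb156) over wild type for the 59 tested members, grouped by family, with bars of 1 standard error. Of the 24 passing members, 15 lie left of 0 and 9 right of it, and the acdh genes that passed are all on the left.

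These counts moved with the libraries used. Without wild-type replicate 2, 13 members were higher (22%, against 19.7% of all genes tested) and 16 were lower (27.1%, against 22.2%). Leaving out any other library lowered the counts, of members and of all genes alike. Without ddi-1(icb156) replicate 1, 4 members (6.78%, against 6.26% of all genes) were higher and 5 (8.47%, against 5.16%) lower. Without ddi-1(icb156) replicate 2, 6 members (10.2%, against 5.95% of all genes) were higher and 6 (10.2%, against 4.93%) lower, and without ddi-1(icb156) replicate 3 it was 6 (10.2%, against 6.62%) and 8 (13.6%, against 7.62%). Without wild-type replicate 1, 4 members (6.78%, against 6.55% of all genes) were higher and 6 (10.2%, against 5.9%) lower, and without wild-type replicate 3 it was 5 (8.47%, against 6.19%) and 7 (11.9%, against 5.25%). With libraries scaled by their size alone, 47.6% of the passing members were higher (10 higher, or 16.9% against 12.4% of all genes, and 11 lower, or 18.6% against 11%), compared with 37.5% in the main test. Passing in every setting and with every library left out held for 7 members, the lower acs-1, acdh-12, acox-1.4 and ech-1.1 and the higher acs-7, acs-21 and acox-1.5.

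The totals were between 28962104 and 36258118 estimated counts in the ddi-1(icb156) libraries and between 40554395 and 47142002 in the wild-type libraries, so members of few counts are measured less precisely in the mutants. Wild-type replicate 2 stood apart from the other wild-type libraries. On the first principal component of all genes, which held 78.5% of the variance, it scored 17.2, with the mutants between -62.8 and -50.6 and wild-type replicates 1 and 3 at 77.4 and 74.9. ddi-1 itself was measured at 35.0, 35.3 and 35.5 CPM (counts scaled to library size) in mutants and at 48.5, 50.3 and 48.6 CPM in wild type, a log2 fold change of -0.48 (standard error 0.05, edgeR adjusted p = 0.00308). The allele is not a deletion, and its level is therefore no check of the labels. Genes of late larval and adult reproduction also differed between the groups. All 6 yolk genes were lower, with summed levels of 302 to 536 CPM in mutants and 2754 to 5709 CPM in wild type. Of 29 tested genes of major sperm proteins, 27 were lower, with sums of 278 to 454 CPM in mutants, against 2421, 661 and 2482 CPM in wild-type replicates 1 to 3. That count was 1 without ddi-1(icb156) replicate 1, 1 without ddi-1(icb156) replicate 2, 6 without ddi-1(icb156) replicate 3, 14 without wild-type replicate 1 and 10 without wild-type replicate 3, and 30 of 30 were lower without wild-type replicate 2. Among 10 germline genes 7 were lower, with sums of 1322 to 1609 CPM in mutants and 1700.1 to 2323 CPM in wild type. Without ddi-1(icb156) replicates 1, 2 and 3 in turn 2, 1 and 5 germline genes were lower, and without wild-type replicates 1, 2 and 3 in turn 2, 10 and 2. All 6 yolk genes were lower without each library. The intestine list had 1 higher and 0 lower of 10 genes (edgeR; 1 lower at an unadjusted p under 0.05, 0 lower by DESeq2 and by limma), and the epidermis list 2 higher and 2 lower of 10. Among 10 neuron genes 6 were higher, and among 10 body wall muscle genes 1 was higher and 1 lower. Of all genes tested, 9.96% were higher and 13.4% lower. With the replicate block 4 neuron genes were higher and 0 muscle genes passed. With 1 library left out, between 3 and 8 neuron genes were higher. The 3 were without ddi-1(icb156) replicate 3 (6.62% of all genes higher) and the 8 without wild-type replicate 2 (19.7%). In RNA of whole animals, fewer cells of a type and less RNA per cell cannot be told apart.

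The acyl-CoA synthetases split. Of 22 acs genes, 6 rose (27.3%, against 9.96% of all genes tested), 5 fell (22.7%, against 13.4%) and 11 did not pass. The family's median log2 fold change was -0.026. Summed over the family, the level per length was 612 ± 30.7 TPM (counts per effective length, scaled to the same total in every library) in mutants and 666 ± 13.8 TPM in wild type (SD, n = 3 each).

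The most abundant synthetase by mean TPM was acs-1 (chromosome V, 6524989 to 6532089), which activates monomethyl branched-chain fatty acids. Its level was 171, 157 and 161 CPM in ddi-1(icb156) and 269, 241 and 273 CPM in wild type. The lowest wild-type library was well above the highest mutant library, and the log2 fold change was -0.68 (standard error 0.07, edgeR adjusted p = 0.00260). Exons of hpo-26 overlap acs-1, and hpo-26 itself was measured at 5.97 CPM in mutants and 2.66 CPM in wild type on average.

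acs-15 (chromosome II, 933018 to 936926) was measured at 2.51, 1.72 and 2.61 CPM in mutants and at 12.6, 4.38 and 13.4 CPM in wild type, a log2 fold change of -2.15 (standard error 0.45, edgeR adjusted p = 0.0247). acs-6 (chromosome II, 7062030 to 7064846) had 4.82, 3.76 and 7.86 CPM in mutants and 24.9, 9.75 and 24.6 CPM in wild type, or -1.85 on the log2 scale (standard error 0.44, edgeR adjusted p = 0.0316). acs-18 (chromosome IV, 10310748 to 10313665) had 5.46, 4.71 and 7.77 CPM in mutants, against 26.9, 8.87 and 26.2 CPM in wild type, or -1.79 (standard error 0.45, edgeR adjusted p = 0.0346). In all 3 genes wild-type replicate 2 lay just above the mutants and far below the other wild-type libraries. acs-10, named after its values were seen, had the same layout, at 14.8, 9.42 and 19.5 CPM in mutants and 56.2, 19.3 and 56.4 CPM in wild type. Its groups overlapped and it narrowly missed the limit on p, its log2 fold change being -1.59 (standard error 0.46, edgeR adjusted p = 0.0481). With the replicate number as a block, acs-10 passed, at a log2 fold change of -1.5 and an edgeR adjusted p of 0.0116.

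A smaller fall was seen in acs-22 (chromosome X, 8931179 to 8939263), a homologue of mammalian fatty acid transport proteins that worms need for the surface barrier. It had 97.3, 111 and 98.0 CPM in mutants and 124, 119.1 and 124 CPM in wild type, a log2 fold change of -0.26 (standard error 0.07, edgeR adjusted p = 0.0391). This call was lost with the replicate block (edgeR adjusted p = 0.0675) and with libraries scaled by size alone (edgeR adjusted p = 0.179). Its paralogue acs-20 was measured at 102, 107 and 90.3 CPM in mutants and 121, 82.9 and 114.2 CPM in wild type, which overlapped (log2 fold change -0.09, edgeR adjusted p = 0.687).

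Of the synthetases that rose, acs-7 (chromosome II, 9292017 to 9294033) takes part in making ascaroside side chains. It was measured at 43.6, 49.2 and 34.3 CPM in mutants, against 24.5, 25.6 and 25.7 CPM in wild type, where the 3 libraries were nearly level (log2 fold change 0.75, standard error 0.13, edgeR adjusted p = 0.0152). acs-2 (chromosome V, 15567394 to 15569897), a mitochondrial synthetase that fasting induces through the nuclear receptor NHR-49, had 19.8, 13.9 and 21.5 CPM in mutants and 7.29, 9.15 and 11.6 CPM in wild type. The gap between the groups was narrow at mutant replicate 2 and wild-type replicate 3, and the log2 fold change was 0.98 (standard error 0.23, edgeR adjusted p = 0.0316). acs-21 had 6.36, 6.41 and 5.77 CPM in mutants and 3.20, 4.03 and 3.38 CPM in wild type, a log2 fold change of 0.81 (standard error 0.16, edgeR adjusted p = 0.0190).

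The other 3 rises concerned a scarce gene and a pair of small changes. acs-24 was close to the limit of detection, with 152 counts over the mutant libraries and 87 over the wild-type libraries, or 1.64, 1.26 and 1.64 CPM in mutants and 0.613, 0.752 and 0.737 CPM in wild type. Its log2 fold change of 1.11 (standard error 0.23, edgeR adjusted p = 0.0229) was the largest among the members that rose. acs-16 had 22.9, 24.4 and 23.1 CPM in mutants and 18.3, 18.6 and 19.2 CPM in wild type, or 0.33 on the log2 scale (standard error 0.07, edgeR adjusted p = 0.0283), and with the replicate block it no longer passed (edgeR adjusted p = 0.0496). acs-17, named after its values were seen, had 51.4, 56.5 and 56.4 CPM in mutants and 39.0, 47.7 and 40.3 CPM in wild type (log2 fold change 0.37, standard error 0.09, edgeR adjusted p = 0.0347). The acs genes that did not pass had log2 fold changes between -1.59 and 0.85 and adjusted p-values between 0.0481 and 0.980. Among these was acs-4, at 214 ± 8.98 CPM in mutants and 261 ± 26.9 CPM in wild type (SD, n = 3 each). Its log2 fold change was -0.29, with an edgeR adjusted p of 0.0553, and it was called lower by DESeq2 (adjusted p = 0.0259) and, in edgeR, without wild-type replicate 2 (adjusted p = 0.00259).

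In limma on log2(TPM + 0.5) and log2(TPM + 1), acs-18 (adjusted p = 0.0534 and 0.0564), acs-16 (0.0514 and 0.0521) and acs-22 did not pass. Of the 11 acs genes that passed in edgeR, all but acs-1, acs-7 and acs-21 lost the call without some library. acs-18, acs-17 and acs-16 kept it only without wild-type replicate 2, and their edgeR adjusted p without any other library was 0.0742 to 0.129 for acs-18, 0.0890 to 0.115 for acs-17 and 0.0713 to 0.121 for acs-16. acs-15 lost it without ddi-1(icb156) replicate 1, 2 or 3 (0.0930, 0.107 and 0.0711). acs-6 lost it without ddi-1(icb156) replicate 1 or 2 (0.114 and 0.120) and without wild-type replicate 1 or 3 (0.0899 and 0.101), and acs-22 without ddi-1(icb156) replicate 1 or 3 (0.121 and 0.101) and without the same wild-type libraries (0.131 and 0.144). acs-2 and acs-24 lost it without ddi-1(icb156) replicate 1 or 3 or wild-type replicate 1, at 0.0877 to 0.111 for acs-2 and 0.0705 to 0.0905 for acs-24. Some of these adjusted p-values are under 0.1 because the limit on p was the one missed.

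None of the 5 tested carnitine palmitoyltransferases passed in edgeR's test, where 9.96% of all genes tested were higher and 13.4% lower. At an unadjusted p under 0.05, 2 were lower and 0 higher, DESeq2 called 1 lower and 0 higher, and limma on log2(TPM + 0.5) or log2(TPM + 1) called 0. cpt-1, which catalyses the entry step at the outer mitochondrial membrane, was measured at 116, 131 and 131 CPM in mutants and 121, 109 and 127 CPM in wild type, and the groups overlapped (log2 fold change 0.09, standard error 0.08, edgeR adjusted p = 0.467). cpt-2, the partner at the inner membrane and the most abundant cpt by mean TPM, had 136, 142 and 127 CPM in mutants, against 138, 142 and 142 CPM in wild type. Its log2 fold change of -0.06 had a standard error of 0.06 and an edgeR adjusted p of 0.491, and its sign turned under other scalings.

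The remaining cpt genes, named after their values were seen, gave lower means without passing. cpt-5 had 18.6, 21.3 and 21.6 CPM in mutants and 30.2, 71.3 and 25.2 CPM in wild type, a log2 fold change of -1.04 (standard error 0.39, edgeR adjusted p = 0.0937). Here wild-type replicate 2 was the highest library, and without it the log2 fold change was -0.44 and passed (edgeR adjusted p = 0.00910). cpt-6 had 23.4, 29.3 and 27.3 CPM in mutants and 20.6, 52.8 and 27.7 CPM in wild type, which overlapped, and its log2 fold change of -0.34 became 0.14 without that library. cpt-4 had 42.0, 50.0 and 38.2 CPM in mutants and 52.9, 55.5 and 53.9 CPM in wild type (log2 fold change -0.32, standard error 0.10, edgeR adjusted p = 0.0644). cpt-3, with 12 counts over the mutant libraries and 21 over the wild-type libraries, was below the filter on low counts and was not tested.

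Every acyl-CoA dehydrogenase gene that passed was lower in mutants. Of 13 acdh genes, 7 fell (53.8%, against 13.4% of all genes tested), 0 rose (against 9.96%) and 6 did not pass. The family's median log2 fold change was -0.22. No acdh gene was higher at an unadjusted p under 0.05, and neither DESeq2 nor limma called any higher. Without wild-type replicate 2, 5 of the 13 were lower and 1 was higher, where 22.2% of all genes were lower and 19.7% higher. Summed levels were 1486 ± 154 TPM in mutants and 1737 ± 158 TPM in wild type (SD, n = 3 each). Most of this sum was acdh-1 (chromosome I, 6497436 to 6499560), which opens the propionate breakdown shunt and was the most abundant member of all families at a mean of 1023 TPM. acdh-1 had 1318, 1351 and 1089 CPM in mutants and 1559, 1784 and 1418 CPM in wild type. The groups did not overlap, but the log2 fold change of -0.34 (standard error 0.12, edgeR adjusted p = 0.0810) did not pass.

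**Figure D2:**
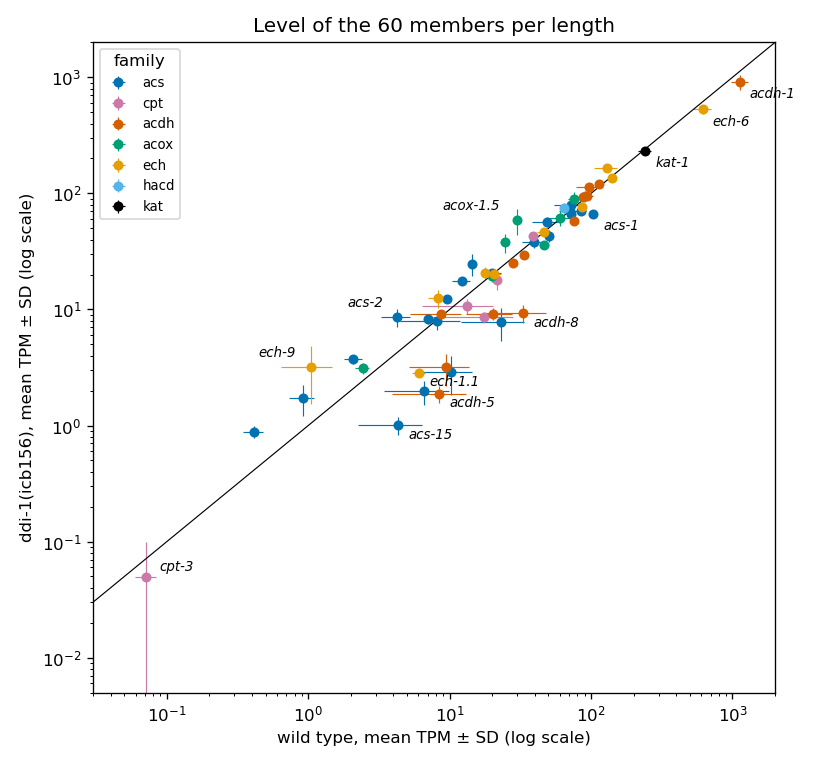
Mean level per length of the 60 members in ddi-1(icb156) (vertical axis) against wild type (horizontal axis), both in TPM on log scales, with bars of 1 SD over 3 libraries and a line of equal levels. The members above 100 TPM lie near the line, and the members far below it, such as acdh-5, acdh-8 and acs-15, are among the less abundant ones.

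acdh-12 (chromosome II, 7192429 to 7195641), the homologue of the very long-chain dehydrogenase, was lower in every setting tried. It was measured at 125, 122 and 121 CPM in mutants and 170.0, 155 and 167 CPM in wild type, or -0.42 on the log2 scale (standard error 0.06, edgeR adjusted p = 0.00702). The groups were well apart, and the gene also passed without each library in turn.

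acdh-5 (chromosome I, 6784868 to 6787139) had the largest fall among all members, with 2.61, 3.04 and 2.43 CPM in mutants and 16.4, 4.64 and 16.8 CPM in wild type (log2 fold change -2.22, standard error 0.49, edgeR adjusted p = 0.0274). acdh-8 (chromosome II, 5794495 to 5796185), a homologue of the medium-chain dehydrogenase, had 11.7, 10.3 and 15.1 CPM in mutants and 56.5, 21 and 58.3 CPM in wild type, or -1.88 (standard error 0.40, edgeR adjusted p = 0.0257). acdh-6 (chromosome III, 8561136 to 8563026) had 13.3, 12.4 and 11 CPM in mutants and 37.2, 16.7 and 30.2 CPM in wild type, or -1.2 (standard error 0.29, edgeR adjusted p = 0.0316). As with the synthetases, wild-type replicate 2 was the lowest wild-type library in each of these and still above every mutant library. acdh-4, named after its values were seen, followed at 2.98, 3.42 and 5.31 CPM in mutants and 16.3, 5.74 and 14.2 CPM in wild type (log2 fold change -1.63, standard error 0.43, edgeR adjusted p = 0.0388). Its highest mutant library was only slightly below wild-type replicate 2, and in limma acdh-4 did not pass on log2(TPM + 0.5) (adjusted p = 0.0569) or log2(TPM + 1) (adjusted p = 0.0589).

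Among the small changes, acdh-11, an enzyme that links heat adaptation to the desaturase gene fat-7, had 59.4, 59.2 and 64.1 CPM in mutants and 71.5, 70.7 and 70.2 CPM in wild type (log2 fold change -0.22, standard error 0.06, edgeR adjusted p = 0.0374). acdh-13, also named after its values were seen, had 52.0, 53.2 and 52.5 CPM in mutants and 58.9, 61.0 and 60.4 CPM in wild type (log2 fold change -0.19, standard error 0.05, edgeR adjusted p = 0.0384). Both lost the call with the replicate block, at edgeR adjusted p-values of 0.0670 for acdh-11 and 0.0737 for acdh-13, and with scaling by library size alone, at 0.105 for acdh-11 and 0.232 for acdh-13.

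The homologues of acdh-8 did not pass. acdh-10 and acdh-7 lie next to each other on chromosome X, acdh-10 from 17213144 to 17214903 and acdh-7 from 17215018 to 17217105. acdh-10 was measured at 168, 169 and 166 CPM in mutants and 154, 161 and 163 CPM in wild type (log2 fold change 0.07, edgeR adjusted p = 0.350), and acdh-7 at 115, 127 and 128 CPM in mutants and 116, 123 and 116 CPM in wild type (log2 fold change 0.06, edgeR adjusted p = 0.534). Without ddi-1(icb156) replicate 1 or 2, acdh-12 was the only acdh gene to pass, and acdh-8 had edgeR adjusted p-values of 0.102 and 0.111 there. acdh-5, acdh-6 and acdh-4 also lost the call without ddi-1(icb156) replicate 3 or wild-type replicate 1 or 3, and over these 5 libraries their adjusted p was 0.0818 to 0.106 for acdh-5, 0.0896 to 0.120 for acdh-6 and 0.0722 to 0.137 for acdh-4. acdh-11 kept its call only without ddi-1(icb156) replicate 3, and acdh-13 lost it without any library (edgeR adjusted p up to 0.125 for acdh-11 and 0.139 for acdh-13).

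Of the 10 ech genes, 2 fell (20%, against 13.4% of all genes tested), 1 rose (10%, against 9.96%) and 7 did not pass. The family's median log2 fold change was -0.053. ech-1.1 (chromosome V, 15357664 to 15361512), a homologue of the alpha subunit of the mitochondrial trifunctional protein that carries both hydratase and hydroxyacyl dehydrogenase activity, was lower by more than 1 on the log2 scale. It was measured at 7.57, 6.28 and 7.74 CPM in mutants and 16, 13.7 and 17.8 CPM in wild type. All 3 wild-type libraries were well above the mutants, replicate 2 included, and the log2 fold change was -1.14 (standard error 0.15, edgeR adjusted p = 0.00525). Over all settings and left-out libraries it ranged from -1.24 to -0.87, and ech-1.1 passed in each. Its paralogue ech-1.2 (chromosome I, 6206955 to 6211155) had 370.3, 381 and 384 CPM in mutants and 398, 403 and 415 CPM in wild type. Per length, ech-1.2 was far more abundant, at 135 ± 7.27 TPM in mutants and 141 ± 4.31 TPM in wild type, against 2.85 ± 0.204 TPM and 6.07 ± 0.663 TPM for ech-1.1 (SD, n = 3 each). The difference in ech-1.2, -0.10 on the log2 scale with a standard error of 0.06, did not pass (edgeR adjusted p = 0.225).

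ech-4 fell slightly, with 100.2, 99.3 and 99.9 CPM in mutants and 117, 115 and 115 CPM in wild type (log2 fold change -0.22, standard error 0.05, edgeR adjusted p = 0.0274). With the replicate block its adjusted p was 0.0567, and with scaling by library size alone 0.118, and it did not pass in either edgeR fit, nor without ddi-1(icb156) replicate 2 or wild-type replicate 1 or 3 (edgeR adjusted p = 0.101 to 0.105). ech-6, which follows acdh-1 in the propionate shunt and was the second most abundant member at a mean of 575 TPM, had 615, 603 and 546 CPM in mutants and 660.1, 797 and 633 CPM in wild type (log2 fold change -0.24, standard error 0.11, edgeR adjusted p = 0.130).

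ech-8 and ech-9 lie side by side on chromosome IV, ech-9 from 10233310 to 10235329 and ech-8 from 10236626 to 10239176. ech-8 rose, with 17.7, 20.6 and 15.9 CPM in mutants and 12.6, 13.6 and 10.4 CPM in wild type (log2 fold change 0.57, standard error 0.15, edgeR adjusted p = 0.0372). ech-8 lost the call in limma on log2(TPM + 0.5) and log2(TPM + 1) (adjusted p = 0.054 and 0.0553), and without ddi-1(icb156) replicate 1 or 2 or wild-type replicate 1 or 3 (edgeR adjusted p = 0.0955 to 0.131). ech-9 had 3.28, 6.85 and 3.76 CPM in mutants and 1.2, 2.51 and 1.55 CPM in wild type. Its groups did not overlap, and the log2 fold change of 1.41 (standard error 0.39, edgeR adjusted p = 0.0443) narrowly missed the limit on p. With the replicate block ech-9 passed, at a log2 fold change of 1.39 and an edgeR adjusted p of 0.0119. In both genes mutant replicate 2 was the highest library, and in both wild-type replicate 2 was the highest of wild type. The other ech genes that did not pass included ech-7, at 117, 122 and 126 CPM in mutants and 87.9, 115 and 87.2 CPM in wild type (log2 fold change 0.34, edgeR adjusted p = 0.0781).

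Neither hacd-1, a hydroxyacyl-CoA dehydrogenase gene, nor kat-1 passed. hacd-1 had 83.0, 89.5 and 81.7 CPM in mutants and 76.2, 77.5 and 72.1 CPM in wild type, which did not overlap (log2 fold change 0.17, standard error 0.06, edgeR adjusted p = 0.0861). kat-1, the thiolase gene, was measured at 306, 305 and 334 CPM in mutants and 319, 369 and 316 CPM in wild type, which overlapped (log2 fold change -0.09, standard error 0.08, edgeR adjusted p = 0.472).

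Peroxisomal oxidase genes passed in both directions. Of 7 acox genes, 2 rose (28.6%, against 9.96% of all genes tested), 1 fell (14.3%, against 13.4%) and 4 did not pass. The median log2 fold change was 0.19, and summed levels were 306 ± 44.2 TPM in mutants and 259.8 ± 20.5 TPM in wild type (SD, n = 3 each). Whether the families differ from each other was not tested.

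acox-1.5 (chromosome III, 9586618 to 9592192) was measured at 107, 154 and 115 CPM in mutants and 63.8, 63.5 and 71.4 CPM in wild type. Every mutant library was well above the highest wild-type library, and the log2 fold change was 0.92 (standard error 0.15, edgeR adjusted p = 0.0107). acox-3 (chromosome IV, 6245358 to 6248492) had 74.3, 94.2 and 73.5 CPM in mutants, against 57.8, 53.4 and 50.4 CPM in wild type (log2 fold change 0.58, standard error 0.11, edgeR adjusted p = 0.0203). Its call was lost without wild-type replicate 3, at an adjusted p of 0.0876. Mutant replicate 2 was the highest library for both oxidases.

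The 4 genes acox-1.1, acox-1.2, acox-1.3 and acox-1.4 stand in a row on chromosome I between 12938555 and 12954003, and each gave its own result. The first of the row, acox-1.1, an oxidase of ascaroside side chains, had 130.0, 152 and 127 CPM in mutants and 125, 162 and 122 CPM in wild type, and its log2 fold change of 0.0027 (standard error 0.13, edgeR adjusted p = 0.991) changed sign under other scalings. acox-1.2, the most abundant acox by mean TPM, had 206, 202 and 165 CPM in mutants and 157, 183 and 161 CPM in wild type, which overlapped (log2 fold change 0.19, edgeR adjusted p = 0.222). acox-1.3 was scarce, at 7.10, 6.95 and 6.10 CPM in mutants and 5.89, 4.61 and 5.77 CPM in wild type (log2 fold change 0.31, edgeR adjusted p = 0.187). acox-1.4 (12951134 to 12954003) fell, with 77.9, 80.6 and 81.0 CPM in mutants and 100.3, 113 and 104 CPM in wild type, the libraries of each group being close together (log2 fold change -0.40, standard error 0.06, edgeR adjusted p = 0.00993). acox-1.6 on chromosome X had 42.2, 44.9 and 39.5 CPM in mutants and 49.1, 39.6 and 45.7 CPM in wild type (log2 fold change -0.09, edgeR adjusted p = 0.543). Reads that fit several of these related genes are divided among them by estimation, so their counts carry some uncertainty.

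**Figure D3:**
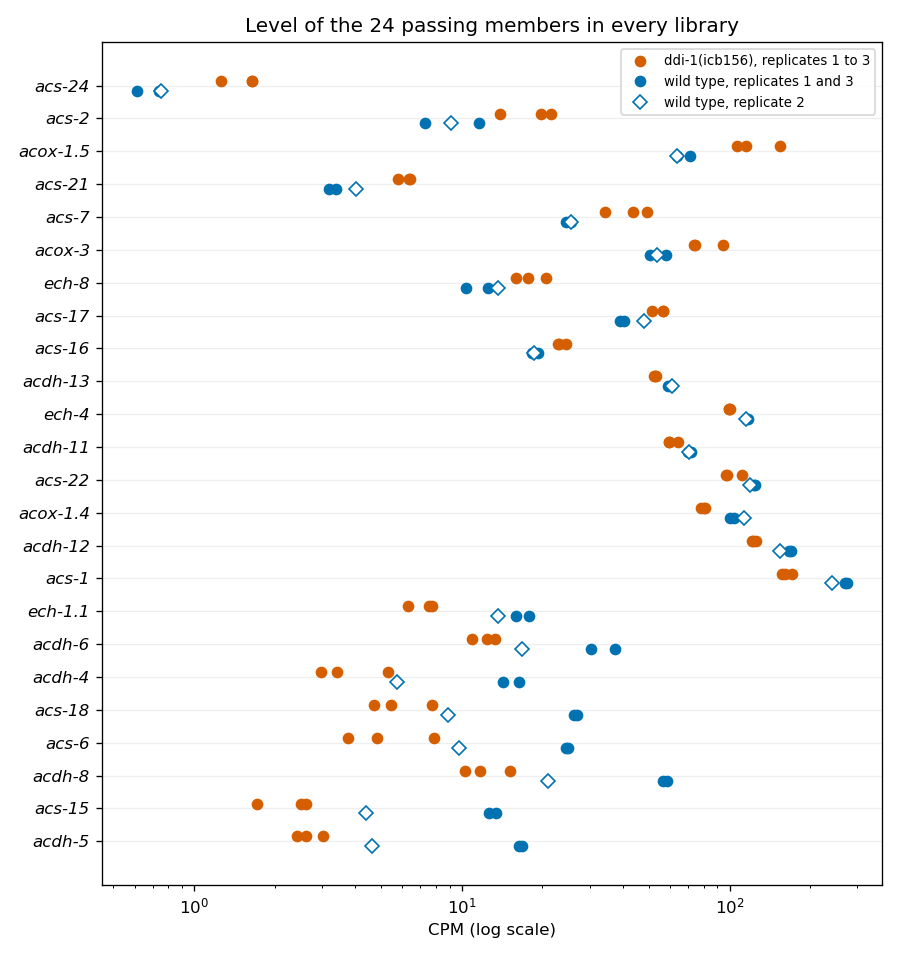
Level in CPM on a log scale of the 24 passing members in every library, ordered by fold change, with ddi-1(icb156) above wild type in each row and wild-type replicate 2 as an open diamond. The 9 members at the top are higher in all 3 mutant libraries, and in the rows from acdh-6 down the diamond lies between the mutants and the other wild-type libraries.

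The falling members were sorted into sets by their fold change and their layout across the libraries. Of the 8 that fell by more than 1 on the log2 scale, 7 had wild-type replicate 2 more than 0.5 below the other wild-type libraries. They were acdh-4, acdh-5, acdh-6, acdh-8, acs-6, acs-15 and acs-18. Since that difference set these 7 apart, its size describes the choice and is no separate result. In these 7, wild-type replicate 2 was lower than the mean of wild-type replicates 1 and 3 by a median of -1.43 on the scale of log2(CPM + 0.5), with a range from -1.73 to -0.98. The mutants were lower than wild-type replicate 2 by a median of -0.69, with a range from -0.83 to -0.44. ech-1.1, the eighth, differed by only -0.30 between wild-type replicate 2 and the others and by -0.88 between the mutants and wild-type replicate 2.

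The 7 members that fell by at most 1 (acs-1, acs-22, acdh-11, acdh-12, acdh-13, acox-1.4 and ech-4) showed no such step. Their median difference between wild-type replicate 2 and the other wild-type libraries was -0.011, with a range from -0.17 to 0.15, and that between the mutants and wild-type replicate 2 was -0.22, with a range from -0.56 to -0.21. For the 9 rising members the same medians were 0.031 and 0.58.

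In the 7 members with the step, the low place of wild-type replicate 2 was fixed by their choice. Their likeness to other genes is therefore no separate result. The marker lists of reproduction gave a like order of libraries. So did the first principal component of all genes, where wild-type replicate 2 scored 17.2, between the mutants and the other wild-type libraries. The order is therefore not particular to these lists. The median major sperm protein gene was at -1.97, -2.44 and -1.78 in ddi-1(icb156) replicates 1 to 3 relative to the wild-type mean of log2(CPM + 0.5), and at 0.60, -1.25 and 0.64 in wild-type replicates 1 to 3. The 7 members were at -1.73, -1.87 and -1.24 in the mutants and at 0.48, -0.95 and 0.49 in wild type. Yolk genes stood at -4.54, -4.88 and -4.0 in the mutants, against 0.29, -0.70 and 0.37 in wild type, and germline genes at -0.85, -0.94 and -0.62 in the mutants, against 0.15, -0.28 and 0.13 in wild type. The part of stage or of reproductive tissue in the fall of these members was not tested.

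**Figure D4:**
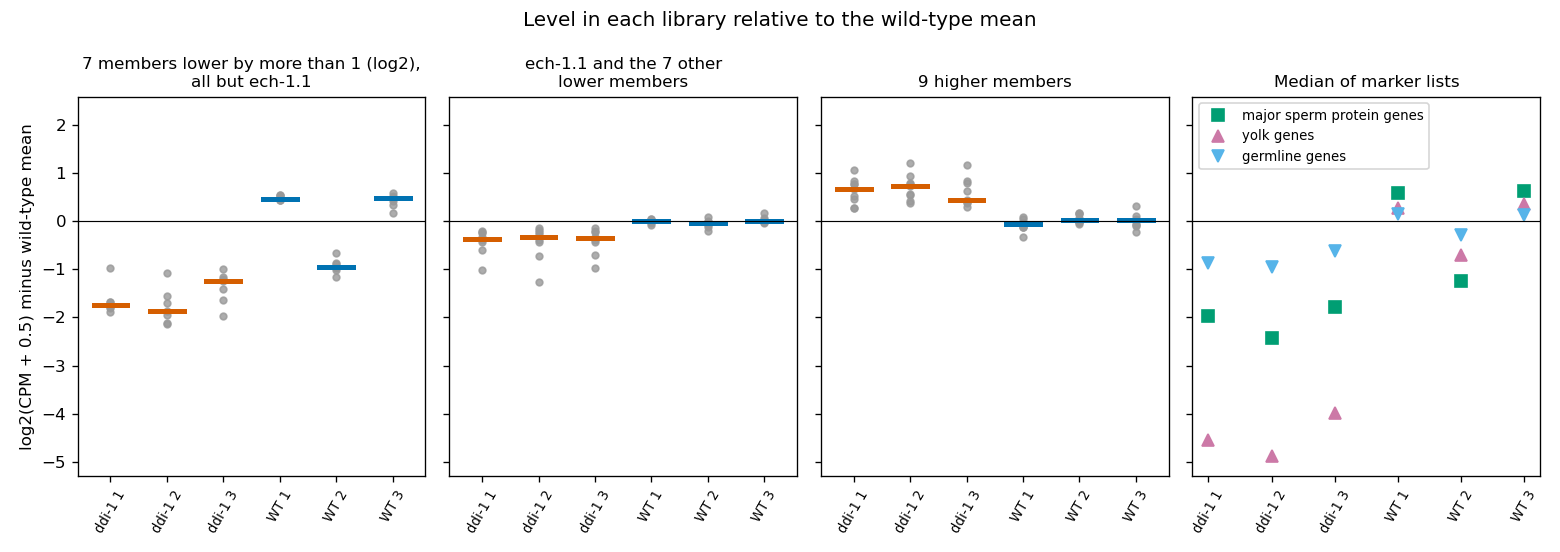
Level in each library relative to the wild-type mean on the log2(CPM + 0.5) scale, for 3 sets of passing members (grey points, with the set's median as a bar) and for the medians of 3 marker lists. In the first panel, chosen for a low wild-type replicate 2 (WT 2), that library lies at -0.95, between the mutants and the other wild-type libraries. The sperm and yolk lists do likewise in the fourth panel. In the panels between them WT 2 is level with the rest of wild type.

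By level, 0 of the 7 members above 100 TPM on average passed in edgeR's test. These were acdh-1, ech-6, kat-1, ech-7, ech-1.2, acdh-10 and acdh-9. The share of all genes above that level that passed was not computed. Without wild-type replicate 2, ech-7 and acdh-9 passed, both higher in mutants. A further 16 members were below 10 TPM. Over all 60 members the summed level was 3904 ± 310.3 TPM in mutants and 4223 ± 363 TPM in wild type (SD, n = 3 each). Single libraries were between 3633 and 4243 TPM in mutants and between 3973 and 4639 TPM in wild type, so the TPM sums overlapped. The CPM sums did not overlap, at 6300, 6524 and 6103 CPM in mutants and 6869, 7446 and 6755 CPM in wild type.

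Estimates for single transcripts differed between the groups in a few members. Such shares are themselves estimates, since a read that fits more than 1 transcript is split between them, and they were not tested. In acox-3 the transcript F58F9.7.1 took 65.1%, 74.0% and 89.1% of the gene's counts in mutants and 36.9%, 64.1% and 41.3% in wild type, F58F9.7.2 holding the rest. In acdh-12 the transcript E04F6.5a.2 took 45.4%, 55.9% and 67.6% in mutants and 22.9%, 43.8% and 35.9% in wild type. The share of C46F4.2a.1 in acs-17 was 15.6%, 33.2% and 42.9% in mutants and 60.7%, 47.7% and 45.6% in wild type. In each of these the nearest libraries of the groups were only a few percentage points apart.

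Exons of other genes overlap some members that passed, and the sources used here do not say whether the libraries keep the strand, so these counts are uncertain. The pairs with both genes in the data were acs-1 with hpo-26, acs-7 with C01G6.9, acs-17 with C46F4.3, acs-22 with dylt-2, acs-24 with C32E8.13, acdh-12 with E04F6.4, acox-1.4 with F08A8.8 and ech-4 with R06F6.12. All 8 of these partners had fewer counts than the member they overlap. Genes absent from the data also overlap passing members, namely C29F3.9 with ech-1.1, linc-119 with ech-8, 21ur-14742 with acdh-4 and 21ur-15248 with acs-1. The levels of these absent genes were not measured. The partner of acox-1.4, F08A8.8, was measured at 2.65, 1.80 and 3.22 CPM in mutants and 8.67, 3.23 and 7.22 CPM in wild type, and E04F6.4 at 17.2, 18.3 and 15.4 CPM in mutants and 10.2, 15.2 and 12.1 CPM in wild type.

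The genes that work beside the members were counted in short lists written by hand. Of all genes tested, 9.96% were higher and 13.4% lower, and whether the lists differ from these shares was not tested. The propionate breakdown list of 12 genes includes acdh-1 and ech-6, and also metr-1 and mtrr-1 of the methionine cycle. Of these 12, 0 passed in edgeR's test, where 2 were lower and 0 higher at an unadjusted p under 0.05. DESeq2 and limma called 0. The median log2 fold change of the 12 was -0.13, with metr-1 at -0.099 and mtrr-1 at -0.25. Of 7 mitochondrial partners, 0 passed in edgeR's test, and 4 were lower and 0 higher at an unadjusted p under 0.05. The 4 were the thiolase subunit gene hadb-1 (log2 fold change -0.19) and the leucine breakdown genes mccc-1 (-0.22), mccc-2 (-0.22) and ivd-1 (-0.20). The thiolase gene acaa-2 was at 0.0094. DESeq2 called 2 partners lower and limma called 0.

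Of 21 peroxisomal partners (import factors, transporters and the enzymes after the oxidases), 1 rose and 0 fell. At an unadjusted p under 0.05, 6 were higher and 0 lower, DESeq2 called 2 higher and 0 lower, and limma called 1 higher and 0 lower. Their median log2 fold change was 0.17. The gene that rose was ctl-2, the peroxisomal catalase, at 186, 206 and 211 CPM in mutants and 156, 173 and 163 CPM in wild type (log2 fold change 0.30, standard error 0.07, edgeR adjusted p = 0.0332). Exons of Y54G11A.7 overlap ctl-2. With the replicate block 4 partners were higher. Without wild-type replicate 2, 8 were higher, where 19.7% of all genes were. Without ddi-1(icb156) replicate 2 or wild-type replicate 1 or 3, 0 were higher, where 5.95% to 6.55% of all genes were. The hydratase gene maoc-1, the dehydrogenase gene dhs-28 and the thiolase gene daf-22, which follow the acox enzymes in ascaroside side-chain shortening, did not pass, with log2 fold changes of 0.53 for maoc-1 (edgeR adjusted p = 0.0479), 0.17 for dhs-28 (0.165) and 0.20 for daf-22 (0.136). These 3 were named after their values were seen.

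Among 18 regulators of lipid breakdown, 1 rose and 0 fell (2 lower at an unadjusted p under 0.05, 0 by DESeq2 and by limma). It was nhr-25, a nuclear receptor of epidermal development and molting, at 29, 31.3 and 27.3 CPM in mutants and 7.75, 7.74 and 6.99 CPM in wild type, a log2 fold change of 1.96 (standard error 0.10, edgeR adjusted p = 3.09e-04). The mutant libraries were far above wild type and close to each other. nhr-49, the receptor through which fasting raises acs-2, was measured at 61.5, 71.0 and 66.8 CPM in mutants and 61.8, 74.1 and 58.4 CPM in wild type (log2 fold change 0.037, edgeR adjusted p = 0.820). Without wild-type replicate 2, 5 regulators were higher, where 19.7% of all genes were.

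Of the 11 lipases tested, 1 rose and 0 fell (1 lower at an unadjusted p under 0.05, 1 by DESeq2 and 0 by limma). fil-1, a fasting-induced lipase, was at 4.22, 4.09 and 3.82 CPM in mutants and 1.80, 2.31 and 2.09 CPM in wild type (log2 fold change 0.97, standard error 0.17, edgeR adjusted p = 0.0140). The adipose triglyceride lipase homologue atgl-1 did not pass, at a log2 fold change of -0.018 (edgeR adjusted p = 0.896). Of 16 carriers of fatty acids and acyl-CoA, 1 fell and 0 rose (3 higher at an unadjusted p under 0.05, 0 by DESeq2 and by limma). It was acbp-4, an acyl-CoA binding protein gene, at 0.201, 0.412 and 0.637 CPM in mutants and 2.50, 0.802 and 2.21 CPM in wild type (log2 fold change -2.12, standard error 0.56, edgeR adjusted p = 0.0392). Exons of F56C9.6 and cwf-19L2 overlap acbp-4. With the replicate block, on log2(TPM + 1), after thinning, and without any library other than wild-type replicate 2, 0 carriers were lower. The stricter filter on low counts left 13 carriers to test, and acbp-4 was below it and not tested there. Without wild-type replicate 2, 3 carriers were lower and 2 higher, where 22.2% of all genes were lower and 19.7% higher.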

How the data were processed

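RNA was taken up in TRIzol from L4 animals, 3 samples each of ddi-1(icb156) and wild type, and BGI sequenced it. The authors made the deposited estimated counts per transcript with kallisto on the WS283 transcriptome and tested them with Sleuth (tool versions: not given in the sources used here); nothing in them was normalized or pooled. Each deposited file also gives lengths and effective lengths, which served to compute TPM here.

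Transcripts (37058) were joined to genes on WBcel235 (Ensembl 115), 30413 by ID and 6633 by sequence name; 12 had no match. Within each gene the estimated counts were added up and rounded. edgeR 4.0.16 (R 4.3.3) kept 15409 genes by filterByExpr, scaled libraries by TMM (factors 0.969 to 1.07) and ran a robust, two-sided quasi-likelihood test without covariates (biological coefficient of variation 0.202), checked on simulated counts. With totals of 28962104 to 47142002 per library, genes of few counts are imprecise. The p-values set the difference between the groups against the spread between samples within a group. They do not cover other alleles or strains.

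Deviations of same-numbered samples from their group means correlated over genes at 0.114, 0.309 and 0.185 for replicates 1 to 3. Samples of different numbers were not compared, so these values do not show that the samples are paired. The main test used no pairing. Fits with the title numbers as a replicate block were run beside it, and 19 of the 24 calls were kept there. Alternatives used DESeq2 1.42.0, limma 3.58.1 on log2(TPM + 0.5) and log2(TPM + 1), other scalings, filters and thresholds, thinning to the smallest library, and leaving out each library.

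Members, lists and tests were chosen with earlier results of these data known. Named with full values were ech-1.1, up to 5 passing members per family and direction by p, the member of highest mean TPM of each family, neighbouring or same-numbered paralogues, and up to 3 passing genes per list and direction; acs-17, acdh-13, acdh-4, acs-10, acs-4, acs-20, cpt-1, cpt-4, cpt-5, cpt-6, ech-7, acdh-7, acdh-10, atgl-1, nhr-49, maoc-1, dhs-28 and daf-22 were named after their values were seen. gcdh-1, of the mitochondrial partners, was not matched. Sequences were not used here.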

Additional observations from a re-analysis of the deposited data

How the results depend on the processing

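Of the 24 passing members, 16 passed under all 10 alternatives that keep every library, 7 also without each library, and 0 changed sign. On log2(TPM + 0.5) and log2(TPM + 1), limma called 9 members lower (3 acs, 4 acdh and 1 ech among them) and 0 ech higher; acs-16, acs-18, acs-22, acdh-4, acdh-11, acdh-13, ech-4 and ech-8 lost the call. ech members higher were 2 with library size alone, the DESeq2 Wald test, no low-count filter, adjusted p below 0.05 alone and the replicate block. ech members lower were 1 with library size alone and with the replicate block, and cpt members lower were 1 by DESeq2. Under the replicate block 9 members were higher and 12 lower. There acs-16, acs-22, acdh-11, acdh-13 and ech-4 lost the call, acs-10 and ech-9 gained it, and no other member's call changed. The share of all genes called was not computed for the replicate block or for limma. A change in these counts can therefore not be told from a change in all genes.

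Leaving out 1 library gave 4 to 13 members higher and 5 to 16 lower. By family this was 2 to 7 acs higher and 1 to 7 lower, 0 to 1 acdh higher and 1 to 5 lower, 1 to 2 acox higher, 0 to 3 ech higher and 1 to 2 lower, and 0 to 1 cpt lower.

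Signs turned only in members that did not pass. acox-1.1 was at -0.015 with DESeq2 size factors, -0.019 by the DESeq2 Wald test, -0.0014 after thinning and -0.084 to 0.14 with a library left out. acox-1.6 was at 0.00012 with library size alone. cpt-2 was at 0.025 with library size alone and at 0.059 on log2(TPM + 0.5) and log2(TPM + 1). With a library left out, acs-20 ranged from -0.24 to 0.016 and cpt-6 from -0.58 to 0.14. The cause was not tested.

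The precision of acs-24 and cpt-3 is limited by their few counts. With 3 libraries a group, the calls of the 7 members in which wild-type replicate 2 stood apart depend on the libraries used. All 7 kept the call without that library, and each lost it without some other library.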
